A study of Arabidopsis thaliana with 18 samples.

Results

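Heat shock proteins that work outside the endoplasmic reticulum were followed in whole Arabidopsis thaliana seedlings kept for 24 hours at 28°C or at 22°C. The 33 genes were chosen by locus, not by their level, from the 33655 rows of the count table. They comprise 13 small heat shock proteins (small HSPs), 9 HSP70 genes, 6 HSP90 genes, 3 HSP100/CLPB genes and the immunophilins FKBP62 and FKBP65. By the place where the protein works, 20 are cytosolic, 5 are plastid and 7 are mitochondrial, and HSP15.7, a small HSP of peroxisomes, makes up the remainder.

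Seedlings of 3 genotypes were compared by 3′ Tag-Seq, in which about 1 read marks the 3′ end of each transcript, so that counts do not depend on transcript length. The groups were hec1hec2 at 28°C and at 22°C, pifQ at 28°C and at 22°C, and Col-0 at 28°C and at 22°C, with 3 libraries each and 18 in all. Col-0 is the wild type and the background of both mutants. hec1hec2 is a double mutant of HEC1 and HEC2, which encode helix-loop-helix proteins that can bind PIFs, and pifQ lacks PIF1, PIF3, PIF4 and PIF5, related factors that promote growth in shade, darkness and warmth. All seedlings were raised on MS medium without sucrose under white light, for 5 days at 22°C by the labels (the study's methods give a day more), before the treatment. RNA came from whole seedlings, so fewer cells of a type and less RNA per cell cannot be told apart.

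Molecular chaperones bind unfolded protein and keep it from aggregating. HSP70 and HSP90 fold client proteins in cycles of ATP hydrolysis, small HSPs hold unfolded protein without ATP, and CLPB proteins of the HSP100 class pull proteins back out of aggregates. Plants carry constitutive forms of HSP70 and HSP90, named cognates (HSC70), beside heat-inducible forms, and separate sets serve the cytosol, the plastid and the mitochondrion. Heat-inducible members are switched on by heat shock factors (HSFs), which bind heat shock elements made of alternating GAA and TTC units. Several small HSPs are also made in maturing seeds.

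Library totals ranged from 3631558 to 6285632 counts (median 4599322), and the 33 genes took 0.246% to 0.406% of them. Counts of HEC1 went against the label: 2691 to 3308 in the 6 libraries labelled hec1hec2, against 33 to 68 in Col-0, so those libraries are named by their label throughout. HEC2 had 0 to 6 counts there, against 3 to 14 in Col-0. Whether the HEC1 tags come from an intact transcript is not known here. In pifQ, PIF3 had 1 to 6 and PIF5 3 to 12 counts, against 56 to 83 and 170 to 553 in Col-0, while tags of PIF1 and PIF4 were not lower in pifQ, and whether these tags lie outside the disrupted part of each gene is not known here. Photosynthetic genes were abundant (5 markers summed to 23552 to 45010 CPM, counts scaled by library size), root markers summed to 14.4 to 54.0 CPM, and of 4 flower markers AP1 and AG had no counts, AP3 had 4 counts over the libraries at 28°C and 9 at 22°C, and PI had 319 at 28°C and 61 at 22°C. PI was called higher at 28°C in pifQ (3.73) and Col-0 (1.81), and its part in the results was not tested.

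A pair of libraries stood apart. Replicate 2 of pifQ at 22°C had steps along the table in locus order: relative to the other libraries, its level after AT1G33170 was 81.7%, after AT2G37640 60.4% and after AT5G04160 32.0% of that at the start of chromosome 1. Of the 33 genes, 13 lie after the last step, 11 after the step before it, 7 after the earliest step and 2 before any step. Replicate 1 of the libraries labelled hec1hec2 at 22°C had more small HSP counts than its replicates, as in 20 counts of HSP17.6A against 0 and 0. Several fold changes that rest on either library are given with and without it. Sums, shares, ranges and differences between genotypes include both libraries unless stated otherwise.

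Heat shock elements near the start of the genes were read from the RefSeq TAIR10.1 genome, in 300 bases from 250 before to 50 after the annotated gene start. A pair of facing units (GAANNTTC or TTCNNGAA, which each read the same on both strands) occurred in 15 of the 33 windows (45.5%), against 5287 of 27443 protein-coding genes (19.3%). A run of 3 units (GAANNTTC followed by NNGAA, or TTCNNGAA followed by NNTTC, each the reverse complement of the other and holding 2 overlapping pairs) occurred in 5 of the 33 (15.2%), against 132 of all (0.481%). The pair stood in 9 of 13 small HSP windows, 3 of 9 HSP70, 0 of 6 HSP90, 2 of 3 CLPB and 1 of 2 FKBP windows, the last being that of FKBP62 and not of FKBP65. For HSP90.1 the annotated gene start is also the coding start, so its window covers less of the promoter. A match is a description of letters and no evidence of binding. The stretches below are the 5 genes with a run of 3 units and the 3 other small HSPs with a pair that were called in at least 1 genotype; the units are in capitals, 5′ to 3′ on the gene's strand, and positions count from 1 at the gene start and from -1 before it.
HSP17.4, first run (chr3:16984946-16984974, minus strand, units from -99 to -87): tcaacataGAAGCTTCTTGAAgccacctg
HSP17.4, second run (chr3:16984865-16984893, minus strand, units from -18 to -6): agaaacctGAAATTTCAAGAAacttgcag
HSP17.6C (chr1:19980238-19980266, plus strand, units from -53 to -41): caacaccaGAAACTTCTTGAAagcacctg
HSP70-4 (chr3:3993846-3993874, minus strand, units from 21 to 33): ttactcgtGAACGTTCTCGAAagctcttt
HSC70-3 (chr3:2905898-2905922, minus strand, units from 34 to 46): atcgaaccGAACATTCTCGAAcctt
cpHSC70-2 (chr5:20303341-20303369, plus strand, units from 16 to 28): caaccattTTCTAGAACCTTCcacttctt
HSP17.6A-CI (chr1:22031342-22031365, plus strand, units from 8 to 15): tgcctcatTTCTAGAAgctctgga
HSP17.6A (chr5:3884845-3884868, minus strand, units from -22 to -15): caagacgtTTCTCGAAcgttagag
HSP23.5 (chr5:20891061-20891084, plus strand, units from -94 to -87): ccacgcagTTCTAGAAccatcctt

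Warmth raised a small group of inducible members and lowered the main cognates. A gene was called where edgeR's false discovery rate (FDR) over 18078 tested genes was at most 0.05 and the change at least 2-fold. Of the 33 genes, 29 had enough counts to be tested. HSP17.4 and HSP17.6II passed this filter only through libraries at 28°C, so a change to higher at 28°C is partly fixed by it for them. In the libraries labelled hec1hec2, 6 were called higher at 28°C and 2 lower, in pifQ 9 and 1, and in Col-0 7 and 2. Over all tested genes the share called was 8.93% in the libraries labelled hec1hec2 (4.81% higher and 4.12% lower), 7.82% in pifQ (4.1% higher and 3.72% lower) and 7.94% in Col-0 (3.86% higher and 4.09% lower). HSP17.4, HSP23.5, HSP70-4, HSP90.1 and FKBP65 were called higher, and HSC70-3 lower, in all 3 genotypes. Without replicate 2 of pifQ at 22°C, 14 members were called in pifQ. Without replicate 1 labelled hec1hec2 at 22°C, 10 were called in the libraries labelled hec1hec2, 13 in pifQ and 12 in Col-0. The share of all genes called in these refits is not given here, and with a smaller group the filter admits more genes. These counts therefore cannot be set beside those of the main fit as a stronger result. At the FDR alone, 8 members were higher and 8 lower in the libraries labelled hec1hec2, 9 and 7 in pifQ and 8 and 8 in Col-0, where the share of all tested genes passing the FDR alone was 29.2% (14.9% higher and 14.3% lower), 27.4% (13.1% and 14.3%) and 26% (13.2% and 12.8%) in the same order. The median log2 fold change of the tested members was 0.18, 0.15 and 0.21 in that order, and that of all tested genes 0.05, 0.00 and 0.04. The 3 temperature contrasts use separate libraries and share 1 estimate of the spread.

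**Figure D1:**
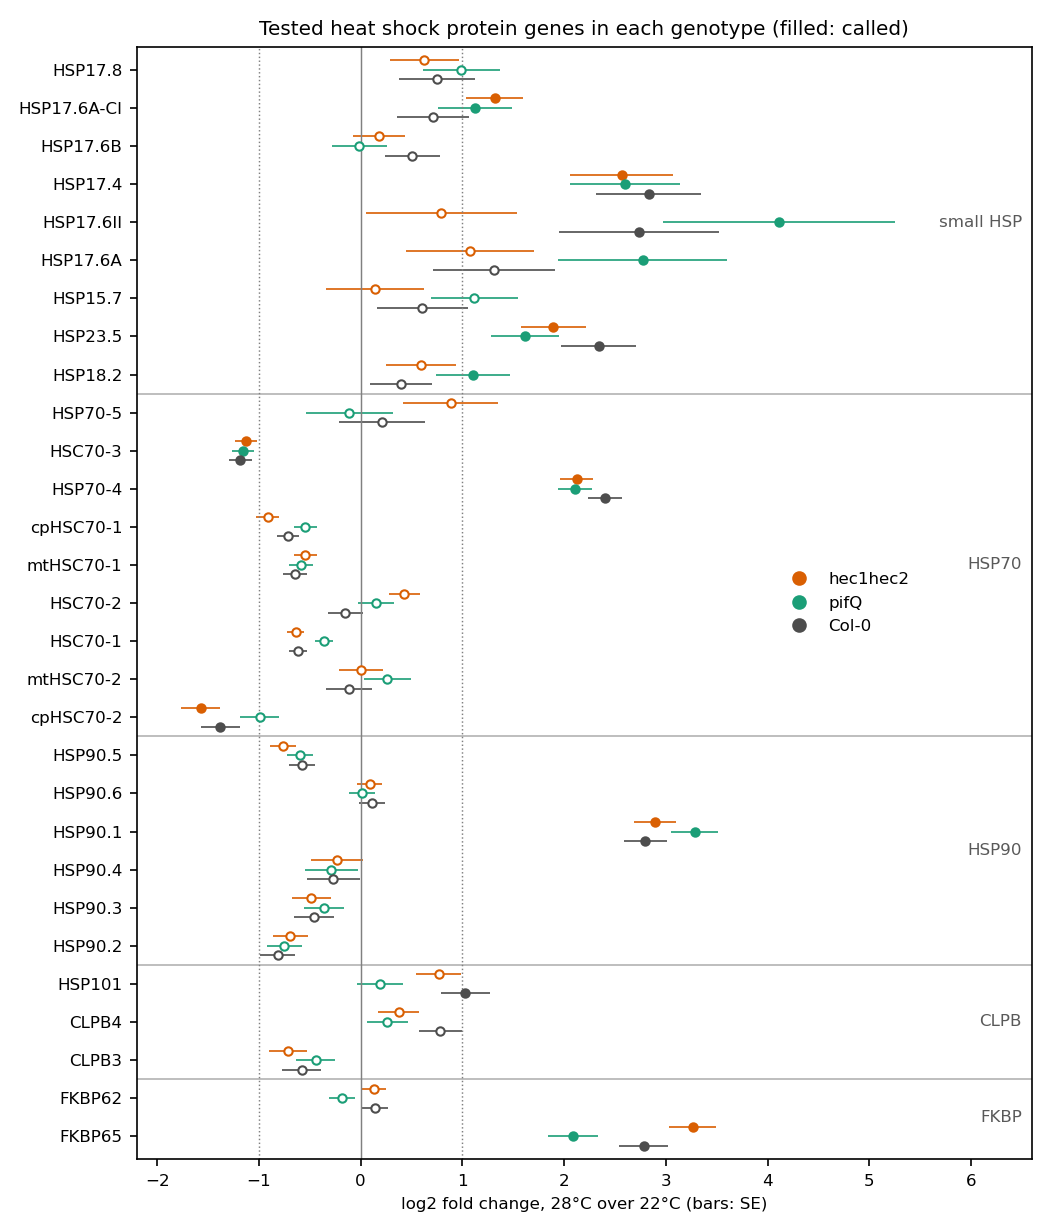
Log2 fold change of the 29 tested genes at 28°C over 22°C (points, with SE) in the libraries labelled hec1hec2, pifQ and Col-0, grouped by class; filled points were called and dotted lines mark a 2-fold change. HSP90.1, HSP70-4, FKBP65, HSP17.4 and HSP23.5 lie beyond 1 in all 3 genotypes, and HSC70-3 lies below -1 in all 3.

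HSP90.1, the heat-inducible cytosolic HSP90, showed the largest change by edgeR's FDR among the HSP90 genes. HSP90.1 (AT5G52640) had 54.3, 49.8 and 57.3 CPM in the libraries labelled hec1hec2 at 28°C, against 8.22, 7.27 and 5.98 CPM at 22°C. Its levels in pifQ were 29.6, 49.8 and 42.9 CPM at 28°C, against 4.42, 2.59 and 5.30 CPM at 22°C. Its levels in Col-0 were 50.9, 45.3 and 56.6 CPM at 28°C, against 7.94, 8.41 and 5.73 CPM at 22°C. Every library at 28°C was above every library at 22°C in each genotype. The log2 fold change was 2.89 ± 0.20 in the libraries labelled hec1hec2 (SE, FDR 1.1e-10), 3.28 ± 0.23 in pifQ (FDR 1.9e-10) and 2.80 ± 0.21 in Col-0 (FDR 5.6e-10). Without replicate 2 of pifQ at 22°C, the pifQ value was 3.07.

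Of the other cytosolic HSP90 genes, HSP90.2 moved the other way. HSP90.2 (AT5G56030), a constitutive cytosolic HSP90 and the most abundant of the 4, was lower at 28°C at the FDR alone in each genotype, with a log2 fold change of -0.69 ± 0.17, -0.75 ± 0.17 and -0.82 ± 0.17 in the libraries labelled hec1hec2, pifQ and Col-0 (FDR 0.0034, 0.0020 and 0.0010). Without replicate 2 of pifQ at 22°C, which lies at 182 CPM beside 310 and 396 CPM in its replicates, HSP90.2 was called lower in pifQ (-1.003, FDR 2.3e-08). HSP90.3 and HSP90.4, the close relatives of HSP90.2 on chromosome 5, had log2 fold changes between -0.48 and -0.23 that did not pass the FDR in any genotype. Without that library both were lower in pifQ at the FDR alone, at -0.61 each. The last 300 transcript bases of HSP90.2 and HSP90.4 share an exact run of 30 bases, and those of HSP90.1 share 24 with each of them, so reads of these genes may be divided with less certainty.

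As a sum, the 4 cytosolic HSP90 genes were lower in warmth while their composition shifted. They summed to 496 ± 36 CPM in the libraries labelled hec1hec2 at 28°C (SD, n = 3), against 670 ± 59 CPM at 22°C. In Col-0 the sum was 394 ± 28 CPM at 28°C, against 543 ± 35 CPM at 22°C. In pifQ it was 372 ± 66 CPM at 28°C, against 497 ± 193 CPM at 22°C, where replicate 2 held only 300.2 CPM and the groups overlapped. HSP90.1 made up 10.9% ± 1.3 of this sum in the libraries labelled hec1hec2 at 28°C, against 1.08% ± 0.26 at 22°C. The share was 10.9% ± 1.2 in pifQ at 28°C, against 0.84% ± 0.06 at 22°C, and 12.9% ± 0.8 in Col-0 at 28°C, against 1.36% ± 0.29 at 22°C.

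HSP90.5 and HSP90.6 serve the plastid and the mitochondrion. HSP90.5 (AT2G04030), the plastid HSP90 needed for chloroplast biogenesis, was the HSP90 gene with the highest mean level. HSP90.5 had 206, 201 and 250 CPM in the libraries labelled hec1hec2 at 28°C, against 402, 359 and 355 CPM at 22°C. Its levels in pifQ were 251, 247 and 191 CPM at 28°C, against 320, 404 and 315 CPM at 22°C. Its levels in Col-0 were 212, 205 and 231 CPM at 28°C, against 317, 308 and 339 CPM at 22°C. All libraries at 28°C were below those at 22°C in each genotype, by less than 2-fold: the log2 fold change was -0.77 ± 0.13, -0.59 ± 0.13 and -0.57 ± 0.13 in the libraries labelled hec1hec2, pifQ and Col-0 (FDR 4.3e-05, 0.00089 and 0.0013). HSP90.6 (AT3G07770), the mitochondrial form, changed by 0.09, 0.02 and 0.11 in the same order, with an FDR of at least 0.56.

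The HSP70 genes split in the same manner. HSP70-4 (AT3G12580), the heat-inducible cytosolic HSP70, was the one HSP70 called higher. HSP70-4 had 126, 105 and 134 CPM in the libraries labelled hec1hec2 at 28°C, against 31.7, 25.6 and 26.4 CPM at 22°C. Its levels in pifQ were 78.9, 99.6 and 85.6 CPM at 28°C, against 21.0, 20.2 and 19.8 CPM at 22°C. Its levels in Col-0 were 132, 88.0 and 117 CPM at 28°C, against 19.2, 26.1 and 18.5 CPM at 22°C. The lowest library at 28°C was well above the highest at 22°C in each genotype. The log2 fold change was 2.12 ± 0.16 in the libraries labelled hec1hec2 (FDR 3.2e-10), 2.11 ± 0.17 in pifQ (FDR 1.3e-09, and 2.11 without replicate 2 at 22°C) and 2.40 ± 0.17 in Col-0 (FDR 1.9e-10). Its run of 3 heat shock units, printed above, lies after the gene start in the untranslated leader.

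HSC70-3 (AT3G09440), a cytosolic cognate, carries the same kind of run after its gene start and was lower in warmth. HSC70-3 had 117, 123 and 124 CPM in the libraries labelled hec1hec2 at 28°C, against 262, 268 and 266 CPM at 22°C. Its levels in pifQ were 81.3, 102 and 90.8 CPM at 28°C, against 208, 198 and 205 CPM at 22°C. Its levels in Col-0 were 107, 89.9 and 96.0 CPM at 28°C, against 209.9, 222 and 232 CPM at 22°C. Replicates lay close together and the temperatures did not overlap. HSC70-3 fell by 1.13 ± 0.11 on the log2 scale in the libraries labelled hec1hec2 (FDR 1.3e-08), by 1.16 ± 0.11 in pifQ (FDR 2.2e-08) and by 1.18 ± 0.11 in Col-0 (FDR 1.4e-08). A gene on the opposite strand, AT3G09430, overlaps it by 863 bases, but averaged only 9.6 counts and did not pass the test.

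HSC70-1 (AT5G02500), the main cytosolic cognate, was the most abundant of the 33 genes. HSC70-1 had 1098, 1125 and 1057 CPM in the libraries labelled hec1hec2 at 28°C, against 1687, 1711 and 1711 CPM at 22°C. Its levels in pifQ were 1131, 1194 and 1272 CPM at 28°C, against 1576, 1501 and 1549 CPM at 22°C. Its levels in Col-0 were 1043, 953 and 1051 CPM at 28°C, against 1527, 1561 and 1592 CPM at 22°C. The temperatures did not overlap in any genotype, and the change passed the FDR but was under 2-fold: -0.64 ± 0.09, -0.36 ± 0.09 and -0.62 ± 0.09 in the libraries labelled hec1hec2, pifQ and Col-0 (FDR 3.9e-06, 0.0030 and 8.9e-06).

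HSC70-2 (AT5G02490), the tandem neighbour of HSC70-1, did not follow it. HSC70-2 had 40.0, 31.7 and 43.7 CPM in the libraries labelled hec1hec2 at 28°C, against 27.2, 31.2 and 27.2 CPM at 22°C. Its levels in pifQ were 16.9, 16.7 and 16.6 CPM at 28°C, against 16.7, 12.2 and 15.9 CPM at 22°C. Its levels in Col-0 were 17.41, 16.2 and 21.5 CPM at 28°C, against 16.9, 21.1 and 23.3 CPM at 22°C. The highest values were in the libraries labelled hec1hec2 at both temperatures. The temperature change passed the FDR there alone (0.43 ± 0.15, FDR 0.038), and was 0.15 ± 0.18 in pifQ and -0.15 ± 0.17 in Col-0. HSP70-5 (AT1G16030), another inducible cytosolic HSP70, stayed between 1.2 and 5.59 CPM and passed no test.

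The 5 cytosolic HSP70 genes together were lower at 28°C, since HSC70-1 sets their sum. They summed to 1378 ± 15 CPM in the libraries labelled hec1hec2 at 28°C (SD, n = 3), against 2026 ± 15 CPM at 22°C. The sum was 1398 ± 79 CPM in pifQ at 28°C, against 1784 ± 45 CPM at 22°C, and 1247 ± 85 CPM in Col-0 at 28°C, against 1826 ± 47 CPM at 22°C. HSP70-4 made up 8.85% ± 1.18 of it in the libraries labelled hec1hec2 at 28°C, against 1.38% ± 0.18 at 22°C. In pifQ the share was 6.30% ± 0.65 at 28°C, against 1.14% ± 0.03 at 22°C, and in Col-0 8.94% ± 1.24 at 28°C, against 1.16% ± 0.23 at 22°C.

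**Figure D2:**
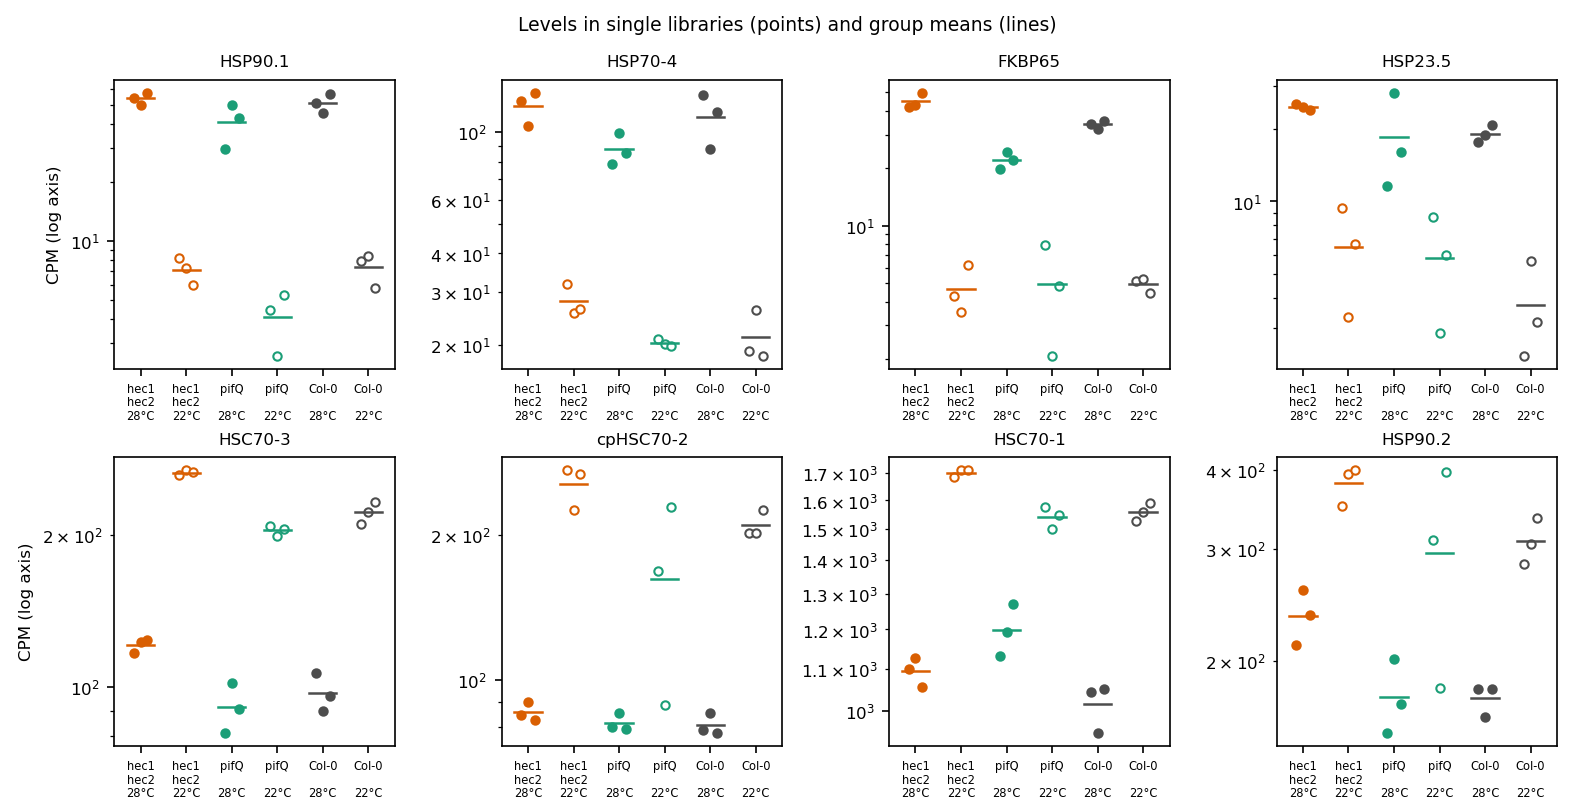
Level of 8 genes in each library (points, CPM on a log axis) with group means (lines), 28°C filled and 22°C open, in the libraries labelled hec1hec2, pifQ and Col-0. The 4 genes of the upper row are higher at 28°C in every genotype; in the lower row HSC70-3 and HSC70-1 are lower at 28°C without overlap, and the open pifQ points of cpHSC70-2 and HSP90.2 include replicate 2, at 89.0 and 182 CPM.

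Among the organelle HSP70 genes, cpHSC70-2 had the lowest log2 fold change in each genotype. cpHSC70-2 (AT5G49910), a stromal HSP70 that takes part in protein import, also has a run of 3 heat shock units in its leader. cpHSC70-2 had 84.9, 90.36 and 82.6 CPM in the libraries labelled hec1hec2 at 28°C, against 273, 226 and 268 CPM at 22°C. Its levels in pifQ were 80.2, 85.4 and 79.4 CPM at 28°C, against 169, 89.0 and 229 CPM at 22°C. Its levels in Col-0 were 78.8, 85.6 and 77.7 CPM at 28°C, against 202, 202 and 225 CPM at 22°C. Libraries at 28°C lay between 77.7 and 90.36 CPM in all genotypes, and below every library at 22°C of the same genotype. cpHSC70-2 fell by 1.57 ± 0.19 on the log2 scale in the libraries labelled hec1hec2 (FDR 6.1e-07) and by 1.38 ± 0.19 in Col-0 (FDR 6.4e-06). In pifQ the value was -0.99 ± 0.19 (FDR 0.00034), just under 2-fold, and it was called without replicate 2 at 22°C (-1.28, FDR 1.5e-10).

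cpHSC70-1 (AT4G24280), the other stromal HSP70, was lower at the FDR alone in each genotype, with log2 fold changes of -0.92 ± 0.11, -0.54 ± 0.11 and -0.71 ± 0.11 in the libraries labelled hec1hec2, pifQ and Col-0. mtHSC70-1 (AT4G37910), a mitochondrial HSP70, was likewise lower at the FDR alone, at -0.54 ± 0.12, -0.58 ± 0.12 and -0.64 ± 0.12. mtHSC70-2 (AT5G09590), its paralog, had values of 0.00, 0.26 and -0.11 that passed no test. The 2 plastid genes summed to 287 ± 5 CPM in the libraries labelled hec1hec2 at 28°C, against 635 ± 45 CPM at 22°C. Their sum was 328 ± 20 CPM in pifQ at 28°C, against 521 ± 85 CPM at 22°C, and 293 ± 26 CPM in Col-0 at 28°C, against 558 ± 42 CPM at 22°C.

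FKBP65 and FKBP62 (ROF2 and ROF1) are peptidyl-prolyl isomerases that bind HSP90 and act in the regulation of HSF activity. FKBP65 (AT5G48570) had 41.6, 43.1 and 49.4 CPM in the libraries labelled hec1hec2 at 28°C, against 4.28, 3.53 and 6.20 CPM at 22°C. Its levels in pifQ were 19.7, 24.2 and 22.0 CPM at 28°C, against 7.88, 2.08 and 4.84 CPM at 22°C. Its levels in Col-0 were 34.2, 32.1 and 35.5 CPM at 28°C, against 5.12, 5.23 and 4.45 CPM at 22°C. The temperatures did not overlap. The log2 fold change was 3.26 ± 0.23 in the libraries labelled hec1hec2 (FDR 1.3e-10), 2.09 ± 0.24 in pifQ (FDR 5.2e-07, and 1.76 without replicate 2 at 22°C) and 2.78 ± 0.24 in Col-0 (FDR 5.6e-09).

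FKBP62 (AT3G25230), the constitutive partner, did not pass the test. FKBP62 had 102, 101 and 96.9 CPM in the libraries labelled hec1hec2 at 28°C, against 78.6, 99.7 and 95.9 CPM at 22°C. Its levels in pifQ were 70.1, 70.5 and 66.5 CPM at 28°C, against 75.6, 80.9 and 79.1 CPM at 22°C. Its levels in Col-0 were 96.6, 74.5 and 103 CPM at 28°C, against 80.1, 91.8 and 76.1 CPM at 22°C. The log2 fold change was 0.13 ± 0.13, -0.18 ± 0.13 and 0.14 ± 0.13 in the libraries labelled hec1hec2, pifQ and Col-0. FKBP65 thereby made up 30.9% ± 2.5 of the tags of the pair in the libraries labelled hec1hec2 at 28°C, against 4.89% ± 1.35 at 22°C. Its share was 24.1% ± 1.9 in pifQ at 28°C, against 5.91% ± 3.48 at 22°C, and 27.3% ± 2.4 in Col-0 at 28°C, against 5.64% ± 0.32 at 22°C.

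**Figure D3:**
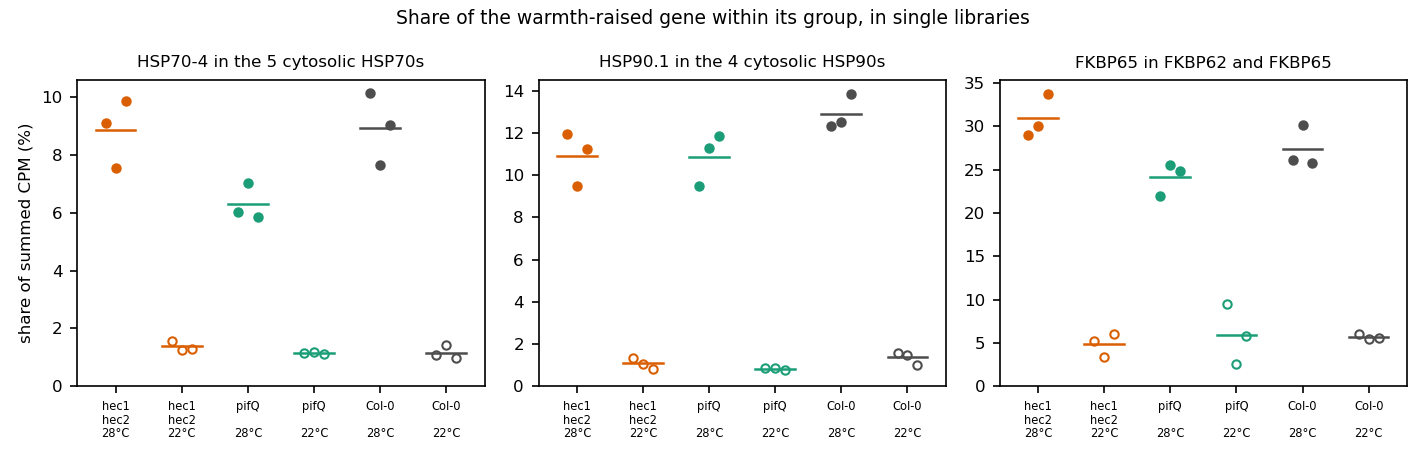
Share of the warmth-raised gene in the summed CPM of its group, in percent, in each library (points) with group means (lines), 28°C filled and 22°C open. HSP70-4, HSP90.1 and FKBP65 each hold a larger share at 28°C in all 3 genotypes, with no overlap between temperatures, and each stays below the most abundant gene of its group.

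Of the CLPB disaggregases, HSP101 was called in Col-0 and no other was called in any genotype. HSP101 (AT1G74310), the cytosolic disaggregase needed for acquired thermotolerance, had 16.3, 13.03 and 15.6 CPM in the libraries labelled hec1hec2 at 28°C, against 10.3, 7.48 and 8.42 CPM at 22°C. HSP101 had 10.3, 14.0 and 10.2 CPM in pifQ at 28°C, against 9.23, 13.8 and 7.61 CPM at 22°C. HSP101 had 10.7, 17.5 and 14.6 CPM in Col-0 at 28°C, against 7.68, 5.91 and 7.21 CPM at 22°C. It was called in Col-0 (1.03 ± 0.24, FDR 0.0023), passed the FDR alone in the libraries labelled hec1hec2 (0.77 ± 0.22, FDR 0.011) and passed neither in pifQ (0.19 ± 0.23, FDR 0.58), where the groups overlapped. The Col-0 value lies at the 2-fold limit: it was 0.87 without replicate 2 at 28°C and 0.93 without replicate 2 at 22°C, and not called in either case. With no filter it was 0.997, with the compared libraries alone 0.994 and with thinned counts 0.90, and not called in these either. Without replicate 2 of pifQ at 22°C, the pifQ value was 0.44. AT1G74300 on the opposite strand overlaps HSP101 by 101 bases, averaged 13.9 counts and did not change at the FDR.

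CLPB3 (AT5G15450), the plastid CLPB, moved down with the other plastid members. CLPB3 had 33.1, 35.1 and 49.8 CPM in the libraries labelled hec1hec2 at 28°C, against 74.1, 54.4 and 65.1 CPM at 22°C. Its levels in pifQ were 34.9, 35.0 and 34.8 CPM at 28°C, against 59.2, 28.3 and 53.5 CPM at 22°C. Its levels in Col-0 were 41.1, 40.0 and 41.8 CPM at 28°C, against 59.6, 59.3 and 64.9 CPM at 22°C. In pifQ the groups overlapped through replicate 2 at 22°C alone. CLPB3 passed the FDR alone in the libraries labelled hec1hec2 (-0.72 ± 0.19, FDR 0.0051) and in Col-0 (-0.58 ± 0.19, FDR 0.025), and in pifQ only without that library (-0.69, FDR 0.00035, against -0.44 with it). CLPB4 (AT2G25140), the mitochondrial form, was higher at the FDR alone in Col-0 (0.78 ± 0.21, FDR 0.0070), with 0.38 and 0.26 in the libraries labelled hec1hec2 and in pifQ.

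The 5 plastid members are cpHSC70-1, cpHSC70-2, HSP90.5, CLPB3 and the small HSP21, which had counts at 28°C only. They summed to 545 ± 34 CPM in the libraries labelled hec1hec2 at 28°C (SD, n = 3), against 1072 ± 77 CPM at 22°C. In pifQ they summed to 593 ± 42 CPM at 28°C, against 914 ± 57 CPM at 22°C, and in Col-0 to 550 ± 36 CPM at 28°C, against 941 ± 59 CPM at 22°C. Of the 4 tested, 4 were lower at the FDR alone in the libraries labelled hec1hec2, 3 in pifQ and 4 in Col-0. Among all tested genes 14.3%, 14.3% and 12.8% were lower at the FDR alone in the same order. The 5 photosynthetic markers also summed to less at 28°C, at 0.676, 0.789 and 0.785 times the mean at 22°C in the libraries labelled hec1hec2, pifQ and Col-0, and the 5 root markers at 0.731, 0.709 and 0.657 times. RBCS1A, with the most counts of the 5 photosynthetic markers, was at -1.09, -0.84 and -0.86 on the log2 scale, and RBCS2B at -0.531, -0.188 and -0.359. LHCB2.1 went the other way, at 0.80, 1.1 and 1.09, as did LHCA3, at 0.626, 0.725 and 0.596. LHCB1.1 lay between -0.16 and 0.028. The photosynthetic sum thus does not stand for all 5. In pifQ at 22°C it includes replicate 2, at 45010 CPM beside 35320 and 34563 CPM. The part of these markers in the plastid values was not tested. Of the 7 mitochondrial members, 5 were tested, and their sum differed little between temperatures beside its spread, at 227 ± 4 CPM in the libraries labelled hec1hec2 at 28°C against 243 ± 12 CPM at 22°C, at 200.2 ± 24 CPM in pifQ at 28°C against 220.4 ± 7.5 CPM at 22°C, and at 199.7 ± 14.5 CPM in Col-0 at 28°C against 219.7 ± 29.2 CPM at 22°C.

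The small HSPs were low throughout. Their 13 genes summed to 67.3 ± 5.4 CPM in the libraries labelled hec1hec2 at 28°C, against 31.4 ± 11.1 CPM at 22°C. The sum was 59.4 ± 12.3 CPM in pifQ at 28°C, against 25.0 ± 2.1 CPM at 22°C, and 66.3 ± 3.8 CPM in Col-0 at 28°C, against 27.5 ± 1.05 CPM at 22°C. Every library at 28°C was above every library at 22°C of the same genotype. The ratio of the means was 2.14, 2.38 and 2.41 in the libraries labelled hec1hec2, pifQ and Col-0. Of the 13, 9 were tested, and 3 were called higher in the libraries labelled hec1hec2, 6 in pifQ and 3 in Col-0. None was called lower. The share of all tested genes called higher was 4.81%, 4.1% and 3.86% in the same order.

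HSP23.5 (AT5G51440), a mitochondrial small HSP, had the highest mean level of the class. HSP23.5 had 25.3, 24.6 and 23.9 CPM in the libraries labelled hec1hec2 at 28°C, against 9.42, 3.32 and 6.64 CPM at 22°C. Its levels in pifQ were 11.6, 28.1 and 16.0 CPM at 28°C, against 8.65, 2.85 and 5.99 CPM at 22°C. Its levels in Col-0 were 17.63, 18.9 and 20.7 CPM at 28°C, against 2.30, 5.68 and 3.18 CPM at 22°C. The temperatures did not overlap, though the spread in pifQ was wide. The log2 fold change was 1.90 ± 0.32 in the libraries labelled hec1hec2 (FDR 5.2e-05, and 2.31 without replicate 1 at 22°C), 1.62 ± 0.33 in pifQ (FDR 0.00069, and 1.32 without replicate 2 at 22°C) and 2.34 ± 0.37 in Col-0 (FDR 3.2e-05).

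HSP17.4 (AT3G46230), a cytosolic class I small HSP and the gene with 2 runs of 3 heat shock units upstream of its start, had 6.71, 5.25 and 4.69 CPM in the libraries labelled hec1hec2 at 28°C, against 1.88, 0.00 and 0.66 CPM at 22°C. HSP17.4 had 5.14, 6.51 and 3.73 CPM in pifQ at 28°C, against 0.58, 0.78 and 1.15 CPM at 22°C. HSP17.4 had 7.18, 5.94 and 6.97 CPM in Col-0 at 28°C, against 0.51, 2.04 and 0.21 CPM at 22°C. In counts this is 18 to 34 in each library at 28°C and 0 to 11 at 22°C. The log2 fold change was 2.57 ± 0.51 in the libraries labelled hec1hec2 (FDR 0.00038), 2.60 ± 0.54 in pifQ (FDR 0.00076, and 2.57 without replicate 2 at 22°C) and 2.83 ± 0.52 in Col-0 (FDR 0.00020). Without replicate 1 at 22°C the value in the libraries labelled hec1hec2 was 3.99, and without replicate 2 at 22°C, which held 9 counts beside 2 and 1, that in Col-0 was 4.17. AT3G46220 on the opposite strand overlaps HSP17.4 by 60 bases, averaged 31.8 counts, above the 15.4 of HSP17.4, and did not pass the FDR.

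HSP17.6A-CI (AT1G59860) and HSP18.2 (AT5G59720) are also class I, and had smaller fold changes. HSP17.6A-CI had 8.27, 7.57 and 8.31 CPM in the libraries labelled hec1hec2 at 28°C, against 3.77, 3.53 and 2.21 CPM at 22°C. Its levels in pifQ were 3.00, 4.27 and 3.52 CPM at 28°C, against 1.73, 1.56 and 1.61 CPM at 22°C. Its levels in Col-0 were 4.57, 3.24 and 2.46 CPM at 28°C, against 2.82, 1.14 and 2.33 CPM at 22°C, and here the groups overlapped. It was called in the libraries labelled hec1hec2 (1.32 ± 0.28, FDR 0.00076) and in pifQ (1.12 ± 0.36, FDR 0.022), and not in Col-0 (0.71 ± 0.36, FDR 0.15). The pifQ call was lost without replicate 2 at 28°C (0.98, FDR 0.086) and without replicate 3 at 22°C (1.11, FDR 0.051). It was also lost with DESeq2 (1.14, FDR 0.052), with the compared libraries alone (1.11, FDR 0.057) and with thinned counts (1.18, FDR 0.068).

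HSP18.2 had 6.48, 2.94 and 3.19 CPM in the libraries labelled hec1hec2 at 28°C, against 2.91, 2.49 and 2.88 CPM at 22°C. Its levels in pifQ were 4.50, 4.07 and 4.98 CPM at 28°C, against 2.31, 1.04 and 2.77 CPM at 22°C. Its levels in Col-0 were 5.01, 6.75 and 6.56 CPM at 28°C, against 5.38, 3.18 and 5.30 CPM at 22°C, and overlapped. It was called in pifQ alone (1.11 ± 0.36, FDR 0.024), against 0.59 ± 0.34 in the libraries labelled hec1hec2 and 0.40 ± 0.31 in Col-0. The pifQ call was lost without replicate 2 at 22°C (0.83, FDR 0.097), without replicate 1 at 28°C (1.11, FDR 0.052) and without replicate 3 at 28°C (1.03, FDR 0.075). It was also lost with offsets for the steps in replicate 2 at 22°C (0.87, FDR 0.053) and with the compared libraries alone (1.102, FDR 0.073).

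HSP17.6II (AT5G12020) and HSP17.6A (AT5G12030), neighbouring genes of the cytosolic class II, rested on few counts. HSP17.6II had 2.24, 1.26 and 0.64 CPM in the libraries labelled hec1hec2 at 28°C, against 1.88, 0.21 and 0.00 CPM at 22°C. Its levels in pifQ were 1.71, 2.44 and 1.04 CPM at 28°C, against 0.00, 0.00 and 0.23 CPM at 22°C, where the 3 libraries held 1 count in all. Its levels in Col-0 were 1.96, 1.89 and 4.10 CPM at 28°C, against 0.00, 0.45 and 0.64 CPM at 22°C. HSP17.6II was called higher in pifQ (FDR 0.0082) and in Col-0 (2.74 ± 0.79, FDR 0.012). Summed over libraries, 25 counts at 28°C against 1 at 22°C in pifQ gave a ratio per total with a 95% counting interval (exact, counting error only) of 3.85 to 965. The Col-0 call was lost without replicate 3 at 28°C (2.26, FDR 0.090) and without replicate 1 at 22°C (2.25, FDR 0.055), and the value was 3.36 without replicate 3 at 22°C.

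HSP17.6A had 3.35, 2.94 and 1.92 CPM in the libraries labelled hec1hec2 at 28°C, against 3.42, 0.00 and 0.00 CPM at 22°C. Its levels in pifQ were 3.43, 2.44 and 2.28 CPM at 28°C, against 0.38, 0.26 and 0.46 CPM at 22°C. Its levels in Col-0 were 3.48, 4.05 and 4.10 CPM at 28°C, against 2.30, 1.36 and 1.06 CPM at 22°C. It was called in pifQ (2.77 ± 0.83, FDR 0.014, and 2.62 without replicate 2 at 22°C), and not in Col-0 (1.31 ± 0.60, FDR 0.11), although the Col-0 groups did not overlap. The pifQ call was lost without replicate 1 at 28°C (2.58, FDR 0.051), and the value was 3.67 with thinned counts. The library of replicate 1 at 22°C labelled hec1hec2 decided the values there. Without it HSP17.6A and HSP17.6II were both called higher in the libraries labelled hec1hec2 (FDR 3.6e-05 and 0.028), and HSP17.6A was called higher in Col-0 as well (1.31, FDR 0.012). HSP17.6A then had no counts left at 22°C in the libraries labelled hec1hec2, and its fitted fold change is no bound. In that fit HSP17.6C and HSP23.6 were also tested and called higher in pifQ and Col-0, and HSP15.7 in pifQ. HSP17.6C and HSP23.6 passed the filter there only through libraries at 28°C. Their direction was therefore partly fixed by the filter, and nothing is drawn from these calls.

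The other tested small HSPs were called in no genotype. HSP17.6B (AT2G29500) was the most abundant class I gene, at 6.0 to 14.5 CPM over all libraries, and its log2 fold changes ranged from -0.01 to 0.51. HSP17.8 (AT1G07400) had 0.63 ± 0.34, 0.99 ± 0.38 and 0.75 ± 0.38 in the libraries labelled hec1hec2, pifQ and Col-0. Without replicate 2 of pifQ at 22°C it was called higher in pifQ (1.45, FDR 0.012). HSP15.7 (AT5G37670) had 0.14 ± 0.48, 1.12 ± 0.43 and 0.61 ± 0.45, with an FDR of 0.054 in pifQ.

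The 4 small HSPs below the filter had few counts. HSP17.6C (AT1G53540), a class I gene with a run of 3 units, summed to 27 counts in the libraries labelled hec1hec2 at 28°C against 18 at 22°C, to 20 in pifQ at 28°C against 2 at 22°C, and to 25 in Col-0 at 28°C against 5 at 22°C. HSP23.6 (AT4G25200), the paralog of HSP23.5, summed to 10 counts against 6, 27 against 1 and 27 against 4 in the same order. The HSP23.6 ratio per total was 1.97 (95% counting interval 0.65 to 6.6), 25.4 (4.18 to 1039) and 6.84 (2.38 to 26.9). HSP21 (AT4G27670), the small HSP of the plastid, had counts at 28°C only, 11 in pifQ and 5 in Col-0, and none in the libraries labelled hec1hec2 at either temperature. HSP26.5 (AT1G52560) had 8 counts or fewer in every group. At this depth, 3 counts in 1 library are 4.77e-05% to 8.26e-05% of its total, and counts of 0 do not show that a gene was silent.

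**Figure D4:**
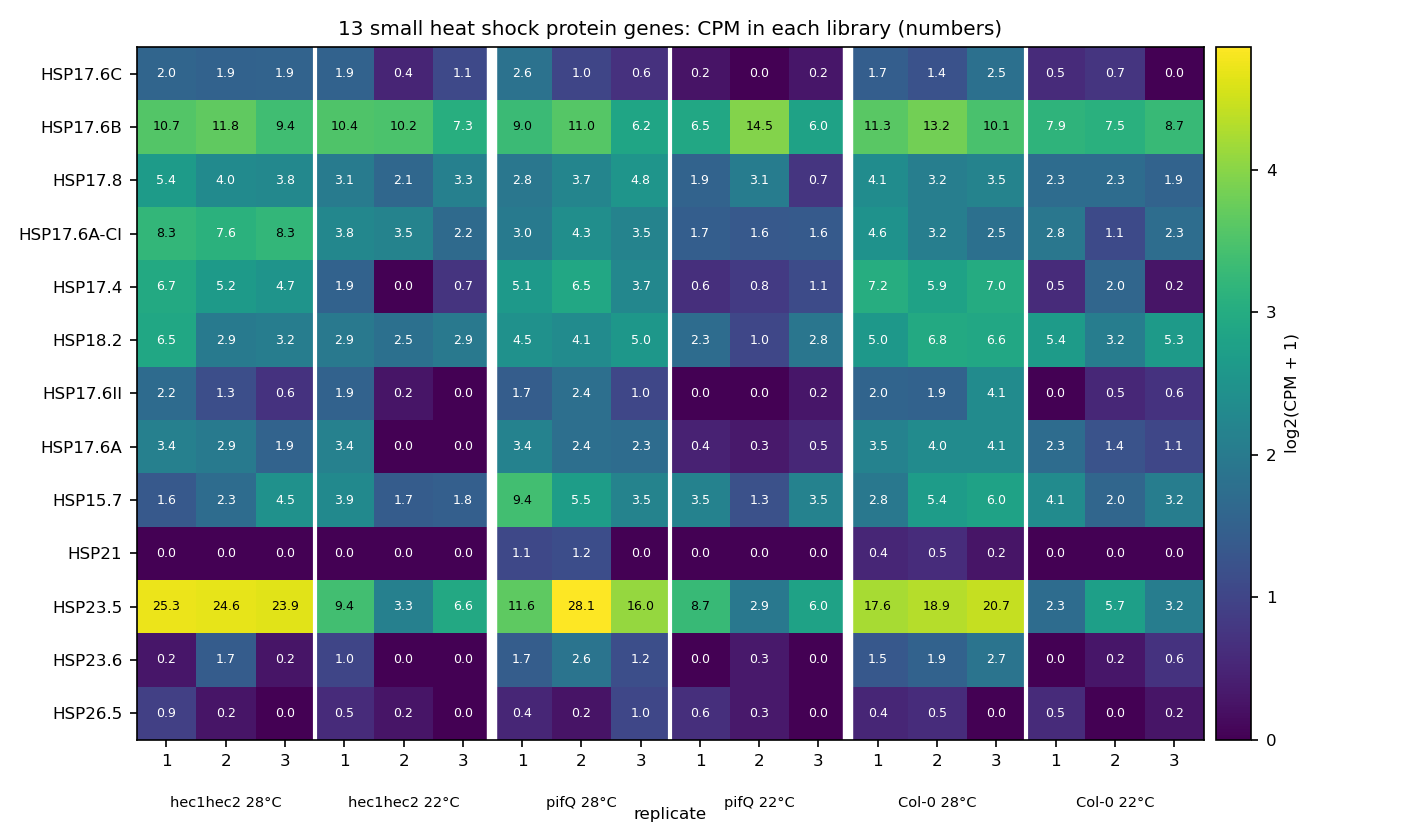
CPM of the 13 small HSP genes (rows) in each of the 18 libraries (columns, 28°C left of 22°C within each genotype), with the colour on the log2(CPM + 1) scale. HSP23.5 and HSP17.4 are higher in all libraries at 28°C than at 22°C, and replicate 1 labelled hec1hec2 at 22°C stands out from its replicates for HSP17.6A (3.4 CPM against 0.0 and 0.0).

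The 5 tested genes of seed maturation and 3 of 5 dehydration genes were also called higher at 28°C in every genotype. Over all tested genes 3.86% to 4.81% were called higher. Of 12 seed markers (oleosins, storage proteins, EM proteins and PER1), 5 were tested and all 5, OLEO2, CRA1, EM1, EM6 and PER1, were called higher at 28°C in every genotype, by 2.25 to 5.13 on the log2 scale. The 12 summed to 94.6 to 123 CPM in the libraries labelled hec1hec2 at 28°C, against 8.9 to 21.0 CPM at 22°C. The sum was 68.0 to 93.7 CPM in pifQ at 28°C, against 4.4 to 9.6 CPM at 22°C, and 49.4 to 106 CPM in Col-0 at 28°C, against 4.1 to 6.8 CPM at 22°C. None of the 12 was at 0 over the 9 libraries at 28°C. CRU2 had 5 counts there against 3 at 22°C, and SESA4 went the other way, with 1 count against 5. In replicate 1 labelled hec1hec2 at 22°C the seed sum was the lowest of its group (8.9 CPM), while its small HSP sum was the highest (44.2 CPM, against 24.1 and 25.9 CPM). Of 5 dehydration markers, RAB18, GOLS1 and RD29B were called higher in every genotype, RD29A was called lower in Col-0 and COR47 was called in none; the 5 summed to 976 to 1094 CPM in the libraries labelled hec1hec2 at 28°C against 531 to 648 CPM at 22°C, to 589 to 660 CPM in pifQ at 28°C against 461 to 871 CPM at 22°C, and to 837 to 914 CPM in Col-0 at 28°C against 538 to 634 CPM at 22°C. The highest dehydration sum in pifQ at 22°C was that of replicate 2 (871 CPM, beside 480 and 461 CPM in its replicates). RD29A was also lower at the FDR alone in pifQ (-0.75, FDR 0.013). The part of the seed and dehydration genes in the small HSP values was not tested.

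**Figure D5:**
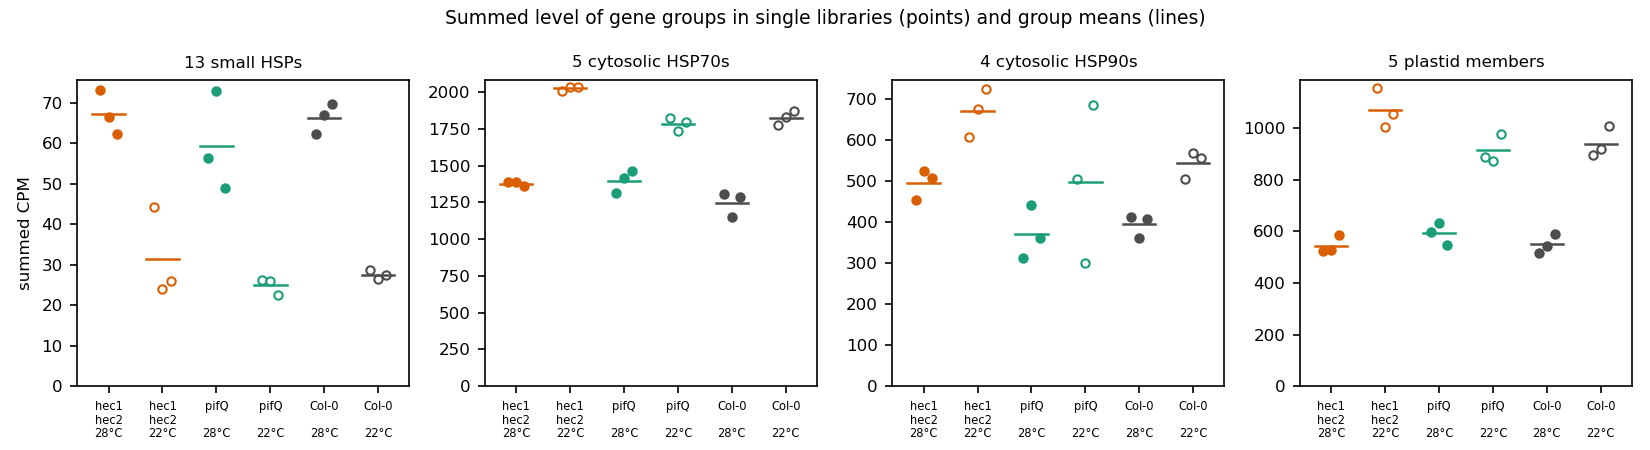
Summed CPM of the small HSPs, the cytosolic HSP70 genes, the cytosolic HSP90 genes and the plastid members in each library (points) with group means (lines), 28°C filled and 22°C open. The small HSP sum is higher at 28°C and the HSP70 and plastid sums are lower, without overlap within a genotype, while the HSP90 sums overlap in pifQ.

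A list of co-chaperones and other heat-related genes held a few raised genes. Of 17 on the list, all tested, 5 were called higher in the libraries labelled hec1hec2, 4 in pifQ and 4 in Col-0. None was called lower. Of all tested genes, 4.81%, 4.1% and 3.86% were called higher in the same order. The largest changes in Col-0 were those of HOP3 (AT4G12400), a scaffold that joins HSP70 to HSP90, at 2.95 ± 0.22, and MBF1C (AT3G24500), a transcriptional coactivator of thermotolerance, at 2.18 ± 0.17. HOP3 stood at 3.12 in the libraries labelled hec1hec2 and 2.40 in pifQ, and MBF1C at 2.17 and 2.53. HSA32 and the J protein AT2G20560 were also called higher in all 3 genotypes, and BAG6 was called in the libraries labelled hec1hec2 (1.44) and passed the FDR alone in pifQ (0.79) and Col-0 (0.97). P23-1, an HSP90 co-chaperone, was lower at the FDR alone in each, at -0.56, -0.46 and -0.47 in the libraries labelled hec1hec2, pifQ and Col-0. The lowest values in Col-0 were -0.71 ± 0.29 for MGE1 (AT5G55200), the mitochondrial GrpE, and -0.56 ± 0.23 for FES1A (AT3G09350), a nucleotide exchange factor, and neither passed the FDR. HOP1 and HOP2, the constitutive relatives of HOP3, lay between -0.33 and 0.04.

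Of the 21 HSF genes, 17 were tested. In the libraries labelled hec1hec2 2 were called (11.8%), in pifQ 1 (5.88%) and in Col-0 1 (5.88%), all higher. Of all tested genes 8.93%, 7.82% and 7.94% were called in the same order. At the FDR alone 5, 5 and 4 HSF genes passed, against 29.2%, 27.4% and 26% of all tested genes. The HSF counts thus lay near the share of all genes. HSFA3 (AT5G03720), a factor downstream of DREB2A, was called higher in all 3 genotypes, at 1.55 ± 0.26 in the libraries labelled hec1hec2, 1.01 ± 0.23 in pifQ and 1.45 ± 0.25 in Col-0, and HSFA8 was called in the libraries labelled hec1hec2 (1.33). HSFB2A (AT5G62020), a class B repressor, was second in Col-0 (0.89 ± 0.25) and passed the FDR alone in all 3 genotypes. The lowest in Col-0 were HSFA1E (-1.04 ± 0.40, FDR 0.058) and HSFA6B (-0.95 ± 0.52, FDR 0.19). HSFC1 was lower at the FDR alone in pifQ (-0.93, FDR 0.0028) and Col-0 (-0.80, FDR 0.0082). HSFA7A was higher at the FDR alone in the libraries labelled hec1hec2 (0.60, FDR 0.0023) and in pifQ (0.79, FDR 9.1e-05). HSFA2, the factor best known for induction by heat, was below the filter, as were HSFA7B, HSFA9 and HSFB3. The master regulators HSFA1A and HSFA1D did not pass the FDR, and HSFA1B was higher at the FDR alone (0.76, 0.91 and 0.77 in the libraries labelled hec1hec2, pifQ and Col-0).

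The mutants were then compared with Col-0 at each temperature. At 28°C, 2 members were called, both higher in the libraries labelled hec1hec2, where 0.863% of tested genes were called and 0.691% were called higher. HSC70-2 was higher by 1.06 ± 0.16 on the log2 scale (FDR 0.00054), with 31.7 to 43.7 CPM against 16.2 to 21.5 CPM in Col-0. HSP17.6A-CI was higher by 1.23 ± 0.28 (FDR 0.023), with 7.57 to 8.31 CPM against 2.46 to 4.57 CPM in Col-0. Neither pair of groups overlapped. HSC70-2 was just under 2-fold without replicate 2 of Col-0 at 28°C (0.98, FDR 0.0086) and without replicate 3 labelled hec1hec2 at 28°C (0.95, FDR 0.0056). The FDR of HSP17.6A-CI rose above 0.05 without replicate 2 or 3 of Col-0 or without any 1 of the 3 libraries labelled hec1hec2 at 28°C, up to 0.23, while its log2 fold change stayed between 1.02 and 1.51 over all alternatives. In the same contrast the seed markers EM1 (2.08, FDR 0.0075) and OLEO2 (1.08, FDR 0.017) were called higher, 2 of the 5 tested, and the root markers EXPA7 and COBL9 had 1.11 and 1.00 without passing the FDR. Their part in these calls was not tested. HEC1 counts in these libraries go against the label, so the direction is that of the libraries and not of a known loss of HEC1.

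At 22°C no member was called between the libraries labelled hec1hec2 and Col-0, where 0.852% of tested genes were called; 4 of 29 members had an unadjusted p under 0.05, against 10.2% of all tested genes, and DESeq2 called 0. HSC70-2 had 0.47 ± 0.16 (FDR 0.20) there. Without replicate 1 labelled hec1hec2 at 22°C, HSP17.6A was called lower (FDR 0.0098), since the other 2 libraries hold no count of it. Between pifQ and Col-0 no member was called at 28°C, where 0.625% of tested genes were called, or at 22°C, where 0.0553% were; 4 and 6 of 29 members had an unadjusted p under 0.05, against 11.2% and 11.3% of all tested genes, and DESeq2 called 0 at each temperature. The lowest FDR at 28°C was that of FKBP65 (-0.63 ± 0.19, FDR 0.13), with 19.7 to 24.2 CPM in pifQ and 32.1 to 35.5 CPM in Col-0.

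The temperature responses themselves were compared by the interaction of genotype and temperature. No member was called in either mutant, with edgeR or with DESeq2, where edgeR called 0.0166% of tested genes for the libraries labelled hec1hec2 and 0.0553% for pifQ. In each, 1 of 29 members had an unadjusted p under 0.05, against 3.83% and 7.71% of all tested genes, so neither count stood above that of all genes. HSC70-2 responded by 0.58 ± 0.23 more in the libraries labelled hec1hec2 than in Col-0 (FDR 1.00 by edgeR), and HSP101 by 0.84 ± 0.33 less in pifQ than in Col-0 (a difference of -0.84, FDR 0.59 by edgeR). The HSP101 value includes replicate 2 of pifQ at 22°C, which held 13.8 CPM beside 9.23 and 7.61 CPM in its replicates. The differences were 0.095 ± 0.303 and 0.485 ± 0.33 for HSP90.1, and -0.28 ± 0.23 and -0.29 ± 0.24 for HSP70-4, in the libraries labelled hec1hec2 and in pifQ. For HSC70-1 that in pifQ was 0.26 ± 0.12, beside changes of -0.36 in pifQ and -0.62 in Col-0. For FKBP65 they were 0.48 ± 0.36 and -0.69 ± 0.36. Those of the small HSPs had standard errors up to 1.6, so calls made in one genotype and not in another are not shown to differ between genotypes.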

How the data were processed

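Whole-seedling RNA was profiled by 3′ Tag-Seq in 18 libraries, 3 in each of 6 groups, which the study's methods describe as independent biological replicates. Raw counts per gene were deposited by the authors; their notes name FastQC, Bowtie2, TopHat and HTSeq with TAIR10, and versions and strand setting are not given in the sources used here. Counts were fitted with edgeR 4.0.16 in R 4.3.3 (TMM scaling, filterByExpr by group, quasi-likelihood test, 6 group means), and p-values were adjusted by Benjamini-Hochberg over 18078 tested genes. A gene was called at an FDR of at most 0.05 and a change of at least 2-fold. CPM are TMM-scaled counts, and the SE of a log2 fold change is its size divided by the square root of F. The model was tested on simulated data. Values in every library are given for members called in any of 9 contrasts and for the member of each class with the highest mean CPM; co-chaperones and HSFs are named by the 2 highest and 2 lowest changes in Col-0, and any others named were chosen after their values were seen. The members and lists were chosen with earlier results of these data known. Coordinates and windows are from RefSeq TAIR10.1. Alternatives were the scaling (RLE), the filter, DESeq2 1.42.0, the FDR alone, thinning, the compared libraries alone, segment offsets, a replicate block and each library left out.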

Additional observations from a re-analysis of the deposited data

How the results depend on the processing

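With the FDR alone, 16 members passed in the libraries labelled hec1hec2, 16 in pifQ and 16 in Col-0 between temperatures. Leaving out 1 library at a time gave 8 to 10, 10 to 14 and 8 to 12 calls in the same order, 0 to 1 between the libraries labelled hec1hec2 and Col-0 at 22°C, 0 to 2 at 28°C, and 0 in the remaining contrasts. With replicate 1 labelled hec1hec2 and replicate 2 of pifQ at 22°C both left out, a setting chosen after seeing the data, 11, 14 and 12 members were called between temperatures and 1 between the libraries labelled hec1hec2 and Col-0 at 22°C. No direction was reversed among values called in the main fit or in the alternative, and sign changes of values called in neither were not counted. Over 29 called values, 782 of 808 alternative values were still called, and 22 of the 29 kept the call under every alternative. The FDR alone keeps every call by construction, and most fits with 1 library left out drop a library outside the contrast. The share of values still called therefore overstates how stable the calls are. With a replicate block, 8, 11 and 9 members were called between temperatures. The share of all genes called under these alternatives is not given here, and fits with a library left out can test more members. Deviations from group means over 11291 genes correlated between -0.053 and 0.185 for same-numbered libraries of a genotype. For differently numbered ones the range was -0.209 to 0.12. Whether libraries with the same number share a batch was not tested. Depth limits the small HSPs of class II and the 4 untested genes most, and counting of opposite-strand overlaps could not be checked.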
